A study of Mus musculus with 10 samples.

Results

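The genes of the translation initiation and elongation factors were compared between the left ventricle (LV) of mice with neonatal ascending aorta constriction (nAAC) and that of sham mice. Members were chosen by gene name alone, as every gene whose symbol starts with Eif or Eef followed by a digit, outside chromosome Y. This rule found 84 of the 55401 genes in the tables. A mean FPKM of at least 1 over the 10 libraries, the level from which genes were tested, left 67 of the 84 members, among 11867 tested genes in all. FPKM (fragments counted per unit of transcript length and of library size) corrects for both, so levels of different genes can be set side by side on it. In nAAC mice the ascending aorta was narrowed surgically within a day after birth, and sham mice had the operation without the constriction. All 10 mice were wild type C57BL/6, nursed by their mothers and sampled at 4 weeks of age, and each group held 5 mice with 1 RNA sequencing library of LV tissue per mouse. The nAAC operation is a mechanical load on the whole heart and changes no gene by design, so there was no targeted gene to check.

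Protein synthesis starts when a small ribosomal subunit that carries eIF1, eIF1A, eIF3, eIF5 and the eIF2-GTP-initiator tRNA complex is brought to the cap of an mRNA by eIF4F, the assembly of the cap-binding protein eIF4E, the scaffold eIF4G and the RNA helicase eIF4A. After the start codon is found and the large subunit has joined, eEF1A delivers each aminoacyl-tRNA, the eEF1B complex recharges eEF1A with GTP, and eEF2 moves the ribosome along the mRNA. Signalling acts on these factors through their phosphorylation. mTORC1 releases eIF4E from the 4E-BP inhibitors, stress kinases act on eIF2 alpha, and eEF2 kinase acts on eEF2, none of which RNA levels show. Striated muscle is known for a tissue-restricted form of eEF1A, eEF1A2, which is made in cardiomyocytes beside the general form eEF1A1.

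The libraries were of similar estimated depth, with 4.86 to 6.82 gigabases of aligned sequence in nAAC mice and 5.06 to 5.24 in sham mice. These depths were estimated from the value of FPKM divided by coverage that occurred most often, in 15.0% to 16.6% of genes above an FPKM of 1. Fragment counts are unknown, so the error of each value was taken from the spread between mice. Mitochondrial transcripts took 32.8% to 39.9% of the TPM in nAAC mice and 33.7% to 49.8% in sham mice, with the lowest sham share in replicate 4. Over all genes tested the log2 FC had a median of 0.22. The typical gene thus read higher in nAAC mice on FPKM, which is scaled to library size, before any further scaling. Median-ratio scaling, which sets the libraries level at their median gene, brought that median to about 0. Values are therefore given on both scales where a call depends on it, and a change is a call only where limma gave an adjusted p below 0.05. Cardiomyocyte markers were abundant in all 10 libraries, with a summed FPKM of 16700 to 25400 over 12 genes in nAAC mice and 18400 to 33000 in sham mice.

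Of the 67 tested factor genes, 12 were higher in nAAC mice and none was lower by limma on log2(FPKM + 1), with p adjusted over all 11867 genes. Of all genes tested, 27.1% were called higher and 4.6% lower, so the members' share of higher calls lay below the background. An unadjusted p below 0.05 was reached by 25 members. The 12 were Eef1a1, Eef1a1-ps1, Eif4a-ps4, Eif4a1, Eef1akmt4, Eif1a, Eif3h, Eif6, Eif4g1, Eif4e2, Eef1g and Eef1e1. Their log2 FC ran from 0.46 to 0.74. None reached an absolute log2 FC above 1 together with an adjusted p below 0.05, a pair of limits that 5.91% of all genes passed. Over the 67 members the log2 FC ran from -0.32 to 0.74, with 54 positive and 13 negative values, and its median of 0.21 lay beside 0.22 for all genes, with 32 members above that median. The typical member thus lay at the typical gene, while single members lay well to either side. In bulk tissue, fewer cells of a type and less RNA per cell cannot be told apart.

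After median-ratio scaling the calls split, with 5 members higher, beside 13.2% of all genes, and 8 lower, beside 12.1%. The 5 were Eef1a1, Eif4a1, Eef1akmt4 and the pseudogenes Eef1a1-ps1 and Eif4a-ps4, all of them also among the 12. The 8 were Eif4a2, Eif3e, Eif3m, Eif1, Eif4e3, Eif4g2, Eif2a and Eif1ax, each of which also had a negative log2 FC on the deposited scale. All of the 12 members that were called on the deposited scale kept a positive log2 FC after scaling, from 0.21 to 0.51. The count also moved with single mice. Without sham replicate 4, 20 members were called higher, beside 33.1% of all genes, and 2 lower, beside 5.23%. Without sham replicate 5, 20 were called higher, beside 30.8% of all genes, and none lower, beside 4.27%. The lower calls without sham replicate 4 were Eif4a2 and Eif4e3, and Eif3e was called lower without sham replicate 1.

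**Figure D1:**
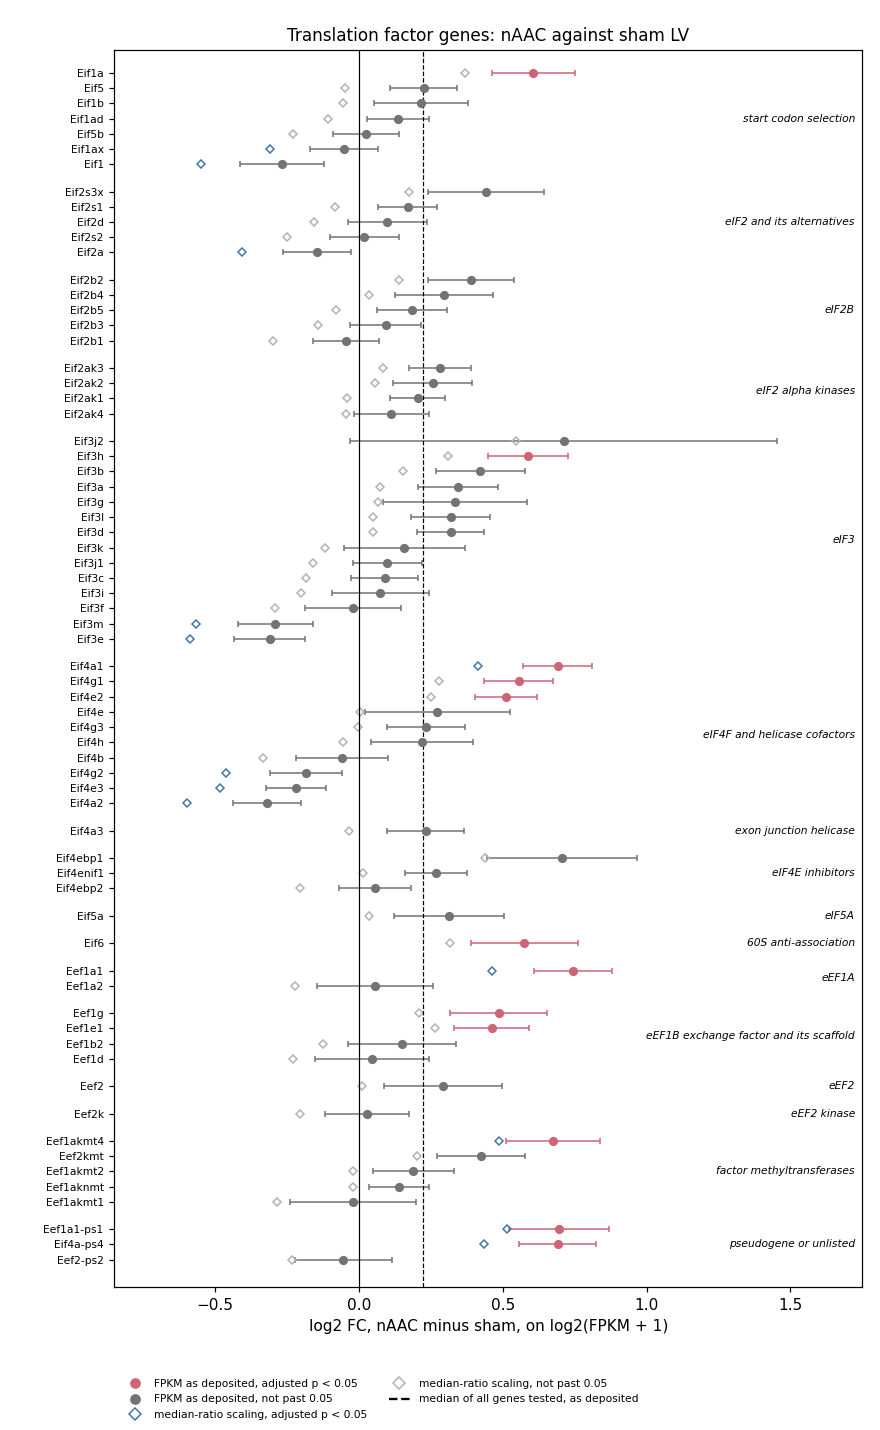
The log2 FC (nAAC minus sham, on log2(FPKM + 1), horizontal axis) of the 67 tested factor genes, grouped by role. Filled points are deposited FPKM with bars of 1 standard error, open diamonds are the same genes after median-ratio scaling, coloured where the adjusted p was below 0.05. The dashed line is the median of all genes, 0.22. The 12 members called on the deposited scale stay above 0 after scaling, while 8 others pass the threshold below 0 on the scaled values and not on the deposited ones.

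The eIF4A helicases, which unwind mRNA near the cap, gave the clearest contrast within the family. Eif4a1 (ENSMUSG00000059796, chromosome 11, 69666936 to 69672423, minus strand) and Eif4a2 (ENSMUSG00000022884, chromosome 16, 23107444 to 23114136, plus strand) encode close relatives. Eif4a1 stood at an FPKM of 99.3, 119.7, 95.5, 99.3 and 95.4 in nAAC mice 1 to 5, and at 57.2, 58.8, 61.6, 69.9 and 65.9 in sham mice 1 to 5. All 5 nAAC mice lay above all 5 sham mice, and nAAC replicate 2 stood highest. The log2 FC was 0.69 (standard error, SE, 0.12, adjusted p = 0.000812 from limma, exact permutation p = 0.0079), and after median-ratio scaling it was 0.41 (adjusted p = 0.017). Eif4a2 read 73.4, 84.1, 66.6, 85.5 and 79.2 in nAAC mice and 86.6, 102, 97.5, 98.9 and 100.5 in sham mice. Here all nAAC mice lay below all sham mice. Its log2 FC was -0.32 (SE 0.12), which missed the threshold on the deposited scale, at an adjusted p of 0.0556 from limma, and passed it after median-ratio scaling, at -0.60 with an adjusted p of 0.00127. Without sham replicate 4 Eif4a2 was called lower on the deposited scale too.

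The coding sequences of Eif4a1 and Eif4a2 were identical at 78.1% of 1221 aligned bases, and the longest stretch they shared was 20 bases, so any longer read from these parts holds a difference. The processed pseudogene Eif4a-ps4 (ENSMUSG00000101188, chromosome 1, 60703932 to 60705149, plus strand) matched Eif4a1 at 1217 of 1218 aligned bases, with a shared stretch of 684 bases. The same 60 coding bases of the 3 genes, from GENCODE release M21 on GRCm38, are printed to show this, with capitals at the bases that differ from Eif4a1.
Eif4a1, coding bases 121 to 180: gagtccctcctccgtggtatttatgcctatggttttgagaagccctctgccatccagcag
Eif4a2, coding bases 127 to 186: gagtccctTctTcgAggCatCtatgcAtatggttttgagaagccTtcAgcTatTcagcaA
Eif4a-ps4, bases 121 to 180: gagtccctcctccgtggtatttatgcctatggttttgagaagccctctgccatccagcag
In this window Eif4a2 differed from Eif4a1 at 11 bases and Eif4a-ps4 at 0. Eif4a-ps4 read 13.6, 16.5, 14.0, 16.1 and 15.5 in nAAC mice and 6.59, 8.90, 8.82, 11.4 and 9.69 in sham mice, with no overlap, a log2 FC of 0.69 (SE 0.13, adjusted p = 0.00181 from limma). It stood far below Eif4a1 in every mouse. Reads of Eif4a1 and Eif4a-ps4 could not be told apart along most of their length, so both values are uncertain in how reads were split, and the pseudogene is no separate evidence of a change.

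The ratio of Eif4a2 to Eif4a1 within a mouse does not depend on the scaling between libraries. It was 0.740, 0.702, 0.698, 0.860 and 0.829 in nAAC mice and 1.51, 1.730, 1.58, 1.41 and 1.52 in sham mice. The groups stood far apart, with Eif4a2 the less abundant of the pair in every nAAC mouse and the more abundant in every sham mouse. Eif4a2 made up 41.1% to 46.2% of the summed FPKM of both genes in nAAC mice and 58.6% to 63.4% in sham mice. The difference in the log2 ratio was -1.02 (SE 0.08, exact two-sided permutation p = 0.0079), the smallest p that 5 against 5 mice can give. Adjusted over the 10 ratios examined between factor genes it was 0.053, and no ratio passed 0.05 after that adjustment. With 5 mice per group, even complete separation cannot by itself bring a ratio past 0.05 over 10 ratios. The adjusted value therefore depended on the p of the other ratios and cannot decide on this one. Leaving out each mouse or adding a pseudocount of 0.1 kept this difference between -1.07 and -0.98. TPM rescales a whole library, so taking it leaves the ratio as it is and is no further check.

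The other parts of eIF4F differed among themselves. Eif4g1 (ENSMUSG00000045983, chromosome 16, 20668313 to 20692884, plus strand), the main scaffold that joins the cap complex to eIF3, read 57.9, 72.0, 72.3, 70.2 and 68.4 in nAAC mice and 47.2, 41.1, 44.2, 43.8 and 54.3 in sham mice. The groups did not overlap, and nAAC replicate 1 stood lowest of its group. Its log2 FC was 0.56 (SE 0.12, adjusted p = 0.00385 from limma, exact permutation p = 0.0079), and it was called in all 10 fits that left out a mouse. After median-ratio scaling it was 0.28, with an adjusted p of 0.0687. Eif4e, the cap-binding protein itself, read 28.1, 24.5, 48.4, 25.9 and 28.0 in nAAC mice and 14.4, 35.4, 20.6, 23.3 and 36.8 in sham mice, which overlapped widely (log2 FC 0.27, SE 0.25, adjusted p = 0.425 from limma). The spread within each group exceeded the difference. Eif4e2, a cap-binding relative that acts in translational repression and was named after its values were seen, read 12.8, 15.2, 13.9, 14.1 and 14.8 against 10.2, 8.37, 9.34, 9.16 and 11.3. No sham mouse reached the nAAC range (log2 FC 0.51, SE 0.11, adjusted p = 0.00332 from limma), and after median-ratio scaling 0.25 without a call (adjusted p = 0.079).

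Eif4e3 and Eif4g2, likewise named after their values were seen, took the other side. Eif4e3, an atypical cap-binding protein, had a mean FPKM of 14.2 ± 1.13 in nAAC mice and 16.7 ± 1.13 in sham mice. Its log2 FC was -0.22 as deposited (adjusted p = 0.121) and -0.48 after median-ratio scaling (adjusted p = 0.00457, limma). Eif4g2, an eIF4G relative that lacks the eIF4E-binding part and serves cap-independent initiation, averaged 81.2 ± 7.45 against 92.5 ± 10.3, with a log2 FC of -0.18 as deposited and -0.46 after scaling (adjusted p = 0.0205 from limma). Eif4g3, the third scaffold, did not pass the test on either scale (log2 FC 0.23 as deposited and close to 0 after scaling). The helicase cofactors Eif4b and Eif4h, which stimulate eIF4A, did not pass it either, at -0.06 and 0.22. Eif4a3, a helicase of the same family that sits in the exon junction complex and not in eIF4F, stood at 0.23, close to the median gene.

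**Figure D2:**
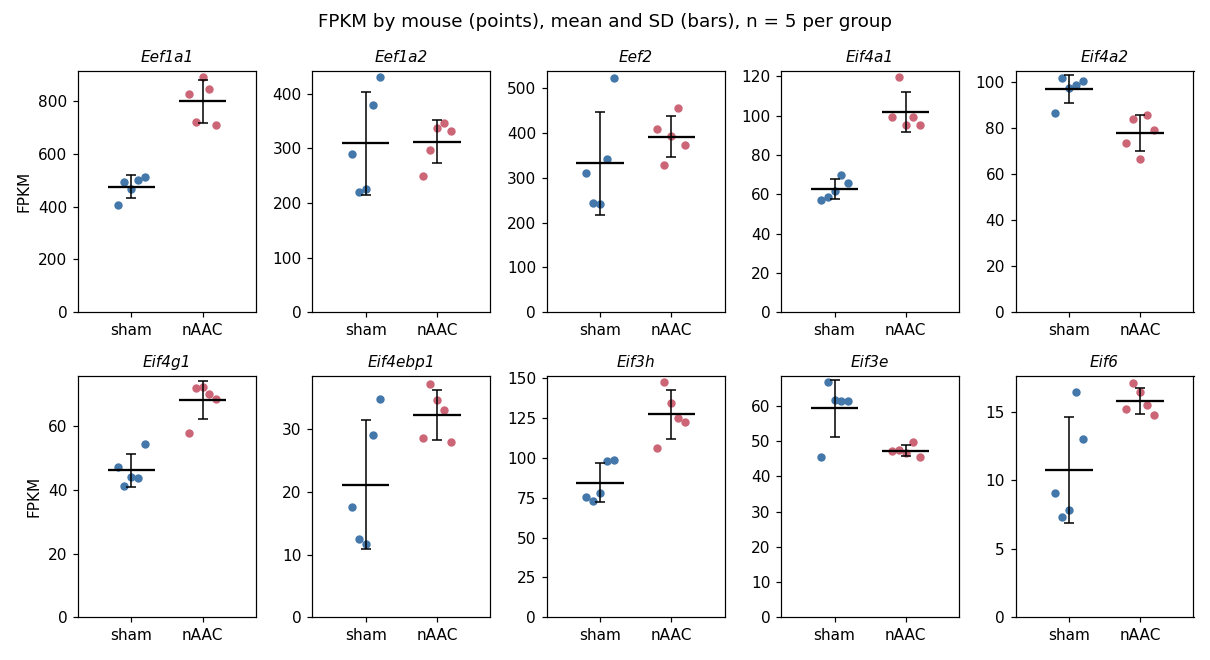
FPKM (vertical axes, from 0) of 10 factor genes in each of the 5 sham and 5 nAAC mice, as points, with the group mean and SD. Eef1a1, Eif4a1, Eif4g1 and Eif3h do not overlap between groups, Eif4a2 lies lower in every nAAC mouse, and Eef1a2, Eef2 and Eif4ebp1 overlap.

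The inhibitors of eIF4E showed no call. Eif4ebp1, which encodes the mTORC1 target 4E-BP1, read 28.5, 37.1, 34.7, 33.1 and 27.9 in nAAC mice and 17.6, 12.5, 11.7, 29.0 and 34.7 in sham mice. Sham mice 1 to 3 stood well below all nAAC mice, while sham mice 4 and 5 lay within their range, so the sham group was split. The log2 FC was 0.71 (SE 0.26, adjusted p = 0.0547 from limma, exact permutation p = 0.095), and the gene passed the threshold when sham replicate 4 or sham replicate 5 was left out. Eif4ebp2, the second 4E-BP, read 10.7, 11.4, 10.5, 14.9 and 13.4 against 11.9, 11.6, 11.4, 9.84 and 13.3 with groups that overlapped (log2 FC 0.06, adjusted p = 0.752 from limma). Eif4enif1, the eIF4E transporter that binds eIF4E in the nucleus and in RNA granules, stood higher in every nAAC mouse at a mean of 10.2 ± 0.782 against 8.37 ± 0.929, but its adjusted p was 0.076 from limma. It overlaps the gene Drg1 on the opposite strand, whose mean FPKM was 223% of its own, and strand use in the quantification is not given in the sources used here. The per-mouse ratio of Eif4ebp1 to Eif4e differed by 0.46 on the log2 scale (SE 0.40, exact permutation p = 0.27), and that of Eif4ebp2 to Eif4e by -0.22 (SE 0.34, exact permutation p = 0.56).

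eIF3 is the largest initiation factor, a complex of subunits lettered a to m with the loosely bound eIF3j, and it bridges the small ribosomal subunit and eIF4G. Of the 14 tested eIF3 genes, 1 was called higher and none lower as deposited, beside 27.1% and 4.6% of all genes. After median-ratio scaling none was called higher and 2 lower, beside 13.2% and 12.1% of all genes. The median log2 FC of the 14 was 0.24, beside 0.22 for all genes. Eif3h (ENSMUSG00000022312, chromosome 15, 51786558 to 51865523, minus strand), a subunit outside the yeast-like core, was the highest expressed of the 14 and was picked out after its values were seen. It read 106, 147, 134, 125 and 123 in nAAC mice and 75.5, 72.8, 77.8, 97.7 and 98.2 in sham mice. All nAAC mice lay above all sham mice (log2 FC 0.59, SE 0.14, adjusted p = 0.00672 from limma, 0.075 after median-ratio scaling). Eif3a, the large core subunit, read 25.4, 33.1, 30.7, 32.3 and 28.1 against 21.2, 25.4, 25.0, 17.8 and 28.1. Sham replicate 5 lay within the nAAC range and sham replicate 2 at its lower edge (log2 FC 0.34, SE 0.14, adjusted p = 0.0749 from limma).

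Subunits of the complex did not move by a common amount. Eif3e and Eif3m, chosen here after their values were seen, had the most negative values among them. Eif3e, a subunit that contacts eIF4G, read 47.2, 47.4, 46.5, 49.6 and 45.4 in nAAC mice, within a narrow range, and 45.5, 66.7, 61.6, 61.2 and 61.4 in sham mice. Sham replicate 1 fell into the nAAC range and the other sham mice lay well above it. Its log2 FC was -0.31 (SE 0.12, adjusted p = 0.0718 from limma), and -0.59 after scaling (adjusted p = 0.00291). Eif3m, a subunit that binds eIF3h and eIF3f, read 48.2, 48.8, 45.0, 49.8 and 49.0 against 51.0, 57.2, 52.9, 77.5 and 60.3. Every nAAC mouse lay below every sham mouse, with a log2 FC of -0.29 as deposited (adjusted p = 0.104) and -0.57 after scaling (adjusted p = 0.00279, limma). Eif3h and Eif3m, whose proteins lie together in the complex, thus had log2 FC of opposite sign on both scales.

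The core subunit Eif3b and the cap-contacting subunit Eif3d came near the threshold as deposited, with log2 FC of 0.42 and 0.32 and adjusted p of 0.0545 and 0.0521 from limma. The log2 FC of Eif3c, Eif3f, Eif3g, Eif3i, Eif3k and Eif3l lay between -0.02 and 0.33, with no call. Eif3j2, on chromosome 18, had the largest mean difference of the group, 0.71, with a standard error of 0.74. It was listed at 0 in nAAC mice 1 and 5 and in sham mice 2, 4 and 5, and between 4.71 and 7.40 in the others. Its coding sequence matched that of Eif3j1 at 99.7% of 786 aligned bases. Reads from such shared parts of both genes could not be told apart, and no direction is given for Eif3j2. Eif3j1, which took values in all mice, read a mean of 11.2 ± 0.966 against 10.5 ± 1.64, under the same limit.

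**Figure D3:**
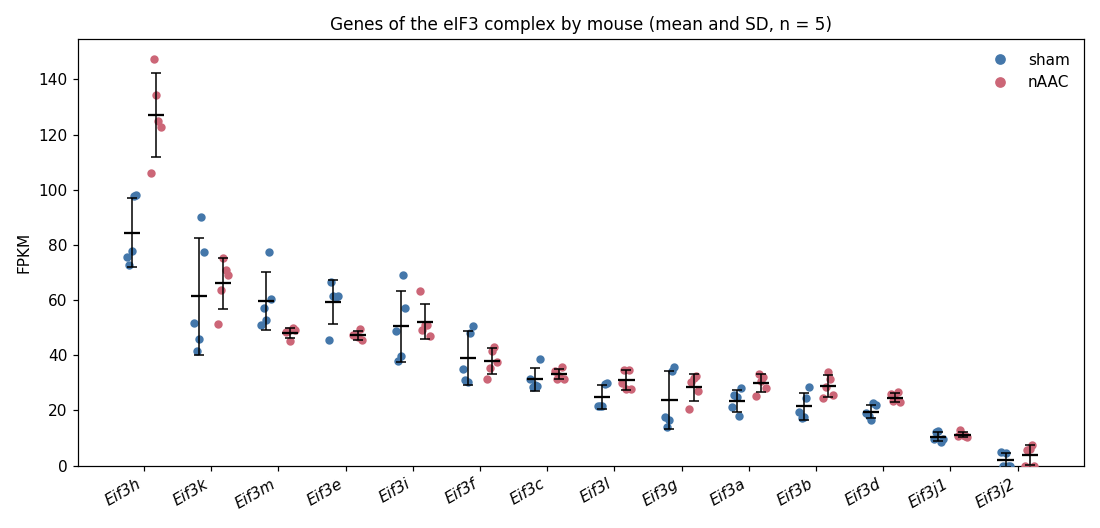
FPKM (vertical axis, from 0) of the 14 tested eIF3 genes, ordered by sham mean, in each mouse as a point with group mean and SD. Eif3h lies higher in all nAAC mice, Eif3m lower in all of them, and Eif3e lower than in 4 of the 5 sham mice. Eif3k, Eif3i, Eif3f and Eif3g spread widely among sham mice.

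Among the factors that select the start codon, Eif1a on chromosome 18 was called. Eif1a encodes a copy of eIF1A, which holds the small subunit open for scanning, and the X-linked Eif1ax encodes another. Eif1a read 9.58, 8.29, 6.35, 5.95 and 5.77 in nAAC mice and 4.41, 5.29, 4.44, 3.63 and 3.84 in sham mice. The groups did not overlap (log2 FC 0.61, SE 0.14, adjusted p = 0.00676 from limma), and nAAC mice 1 and 2 stood highest. After median-ratio scaling the log2 FC was 0.37 with an adjusted p of 0.139. Eif1ax, named after its values were seen, averaged 10.02 ± 1.35 against 10.4 ± 1.01, with a log2 FC of -0.05 as deposited and -0.31 after scaling (adjusted p = 0.04 from limma). The ratio of Eif1a to Eif1ax was 1.12, 0.756, 0.71, 0.505 and 0.583 in nAAC mice and 0.481, 0.522, 0.426, 0.303 and 0.374 in sham mice. The ranges met only at their edges, nAAC replicate 4 lying just inside the sham range. The difference was 0.77 on the log2 scale (SE 0.24, exact permutation p = 0.016, 0.053 adjusted over the 10 ratios). Their coding sequences were identical at 85.5% of bases with a longest shared stretch of 28 bases.

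Eif1, the guardian of start codon fidelity and the most abundant initiation factor RNA, also was chosen after its values were seen. It read 185, 253, 220.3, 217 and 205 in nAAC mice and 241, 222, 235, 310.5 and 299 in sham mice. Sham mice 4 and 5 stood above all other mice and the rest overlapped, so the deposited values gave no call (log2 FC -0.27, adjusted p = 0.175 from limma). Relative to the shift of all genes it was lower, at -0.55 after median-ratio scaling (adjusted p = 0.00583 from limma). Eif1b and Eif1ad, relatives of Eif1 and eIF1A, Eif5, the GTPase activator of eIF2, and Eif5b, the GTPase that joins the large subunit, had log2 FC of 0.21, 0.14, 0.22 and 0.02, with no call on either scale.

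The eIF2 trimer carries the initiator tRNA and its recycling factor eIF2B restores GTP to it. None of their 10 tested genes, counting the eIF2-independent initiators Eif2a and Eif2d, was called as deposited. Of all genes, 27.1% were called higher and 4.6% lower. Eif2s1, the alpha subunit that stress kinases phosphorylate, read 9.79, 10.8, 9.37, 11.1 and 9.57 in nAAC mice and 7.72, 8.79, 9.16, 9.98 and 8.80 in sham mice. Sham replicate 4 lay within the nAAC range (log2 FC 0.17, SE 0.10, adjusted p = 0.224 from limma). Eif2b5, the catalytic subunit of eIF2B, read 15.8, 17.6, 16.7, 17.5 and 15.8 against 14.2, 12.9, 12.4, 15.4 and 18.5. Sham replicate 5 was the highest of all 10 mice (log2 FC 0.19, adjusted p = 0.255 from limma). Among the others, Eif2b2, a regulatory subunit, came nearest to a call (log2 FC 0.39, adjusted p = 0.0635 from limma). Eif2a was the 1 gene of this group called after median-ratio scaling, at -0.41 (adjusted p = 0.00697 from limma). It overlaps Serp1 on the opposite strand, whose mean FPKM was 48.4% of its own.

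Eif2s3x, the X-linked gamma subunit, read 30.6, 17.6, 26.4, 31.6 and 30.9 in nAAC mice and 14.9, 16.8, 17.5, 20.9 and 30.5 in sham mice (log2 FC 0.44, SE 0.20, adjusted p = 0.112 from limma). Its lowest values were those of nAAC replicate 2 and sham mice 1 to 3. In these same 4 mice its Y-linked copy Eif2s3y, which the naming rule leaves out, had an FPKM of 22.6, 15.6, 25.9 and 21.4, while it was listed at 0 in the other 6. Xist, the RNA of the inactive X chromosome, was at 0.023 or below in those 4 mice and between 3.70 and 17.9 in the other 6, of which 4 were nAAC mice. The labels give no sex, and these sets of mice were spread unevenly over the groups. With Xist as a covariate the log2 FC of Eif2s3x was 0.01 (adjusted p = 0.961 from limma), and 7 members, all of them among the 12, were called higher, beside 13.4% of all genes, and none lower, beside 3.29%. The 7 were Eef1a1, Eif4a1, Eif4a-ps4, Eif4g1, Eif4e2, Eif3h and Eif1a. The rest of the 12, Eif6, Eef1g, Eef1e1, Eef1a1-ps1 and Eef1akmt4, lost their call. Nearest to the limit of these was Eef1akmt4, at an adjusted p of 0.0606, followed by Eef1e1 at 0.099, both from limma.

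The eIF2 alpha kinases, which link stresses to translation, gave no call. Eif2ak3 (PERK, the sensor of unfolded protein in the endoplasmic reticulum) read 2.50, 2.47, 2.28, 2.82 and 3.30 in nAAC mice and 1.77, 2.23, 2.07, 1.76 and 2.25 in sham mice. All nAAC mice lay above all sham mice, by a margin that limma on log2(FPKM + 1) did not call (log2 FC 0.28, SE 0.11, adjusted p = 0.0631, exact permutation p = 0.0079). Eif2ak4 (GCN2, the sensor of uncharged tRNA) read 1.63, 1.06, 1.09, 1.74 and 1.28 against 1.42, 1.42, 1.06, 0.715 and 1.32, which overlapped throughout (log2 FC 0.11, adjusted p = 0.528 from limma). Eif2ak1 (the heme-regulated kinase) and Eif2ak2 (PKR, the sensor of double-stranded RNA) stood at 0.20 and 0.26. At levels of a few FPKM, a fold change on the log2(FPKM + 1) scale understates the change.

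Of the late-acting factors, Eif6, which keeps free large subunits apart from small ones, was called higher. It read 15.2, 17.1, 16.4, 15.5 and 14.8 in nAAC mice and 9.09, 7.33, 7.86, 16.4 and 12.97 in sham mice. Sham replicate 4 lay within the nAAC range and the other sham mice below it (log2 FC 0.57, SE 0.19, adjusted p = 0.0315 from limma), and after median-ratio scaling it stood at 0.32 without a call (adjusted p = 0.18). The adjusted p lay near the limit, and the call held in 3 of the 10 fits that left out a mouse, those without nAAC replicate 1, sham replicate 4 or sham replicate 5. The log2 FC over these 10 fits ran from 0.47 to 0.73. Eif5a, the hypusine-bearing factor that helps ribosomes through stalling sequences, read 122, 178, 151, 163 and 138 against 106, 92.3, 98.8, 181 and 141. The sham group spanned the whole nAAC range (log2 FC 0.31, SE 0.19, adjusted p = 0.222 from limma).

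In elongation, the general factor Eef1a1 (ENSMUSG00000037742, chromosome 9, 78478449 to 78489151, minus strand) had the largest called log2 FC of the family on the deposited scale of log2(FPKM + 1), though not after median-ratio scaling, where Eef1a1-ps1 and Eef1akmt4 stood above it. It stood at an FPKM of 827, 721, 891, 847 and 708 in nAAC mice and 405, 494, 469, 499 and 513 in sham mice. The lowest nAAC mouse exceeded the highest sham mouse by a wide margin. The group means were 799 ± 80.3 and 476 ± 42.8 (SD, n = 5 each). This was a log2 FC of 0.74 (SE 0.14, adjusted p = 0.00127 from limma, exact permutation p = 0.0079). After median-ratio scaling it was 0.46 (adjusted p = 0.0227). The striated muscle form Eef1a2 (ENSMUSG00000016349, chromosome 2, 181147653 to 181157014, minus strand) read 250.1, 296, 336, 347 and 331 in nAAC mice and 289, 220.4, 225, 379 and 431 in sham mice. Sham mice 4 and 5 were the highest and sham mice 2 and 3 the lowest of all, with the nAAC mice and sham replicate 1 between (log2 FC 0.06, SE 0.20, adjusted p = 0.851 from limma). Its direction depended on the processing, at -0.22 after median-ratio scaling without a call, and at -0.36 with an adjusted p of 0.00671 from limma once trends on GC content and transcript length were removed.

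The ratio of Eef1a2 to Eef1a1 was 0.303, 0.411, 0.377, 0.410 and 0.467 in nAAC mice and 0.713, 0.446, 0.481, 0.760 and 0.840 in sham mice. Eef1a1 was the more abundant in every mouse, and the groups overlapped between nAAC replicate 5 and sham replicate 2. Eef1a2 made up 23.2% to 31.8% of the summed FPKM of both genes in nAAC mice and 30.8% to 45.7% in sham mice. The difference in the log2 ratio was -0.69 (SE 0.21, exact permutation p = 0.016, 0.053 adjusted over the 10 ratios). The coding sequences of the 2 genes were identical at 80.1% of 1389 aligned bases, with a longest shared stretch of 23 bases, so any longer read from these parts holds a difference. A window of 60 coding bases from GENCODE release M21 on GRCm38 shows how they differ, with capitals at the 10 bases of Eef1a2 that are not those of Eef1a1.
Eef1a1, coding bases 121 to 180: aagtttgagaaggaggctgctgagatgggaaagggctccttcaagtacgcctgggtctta
Eef1a2, coding bases 121 to 180: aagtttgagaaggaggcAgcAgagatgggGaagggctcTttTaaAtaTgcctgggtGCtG
Eef1a1-ps1, a processed pseudogene on chromosome 19, matched Eef1a1 at 97.4% of 1386 aligned bases, with shared stretches of up to 144 bases. It read 3.68, 1.90, 3.82, 3.46 and 2.37 in nAAC mice and 1.72, 0.934, 1.06, 1.81 and 1.90 in sham mice, with nAAC replicate 2 as low as the highest sham mouse (log2 FC 0.70, SE 0.17, adjusted p = 0.00834 from limma). Along such stretches its reads cannot be told apart from those of Eef1a1, and it is no separate evidence.

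**Figure D4:**
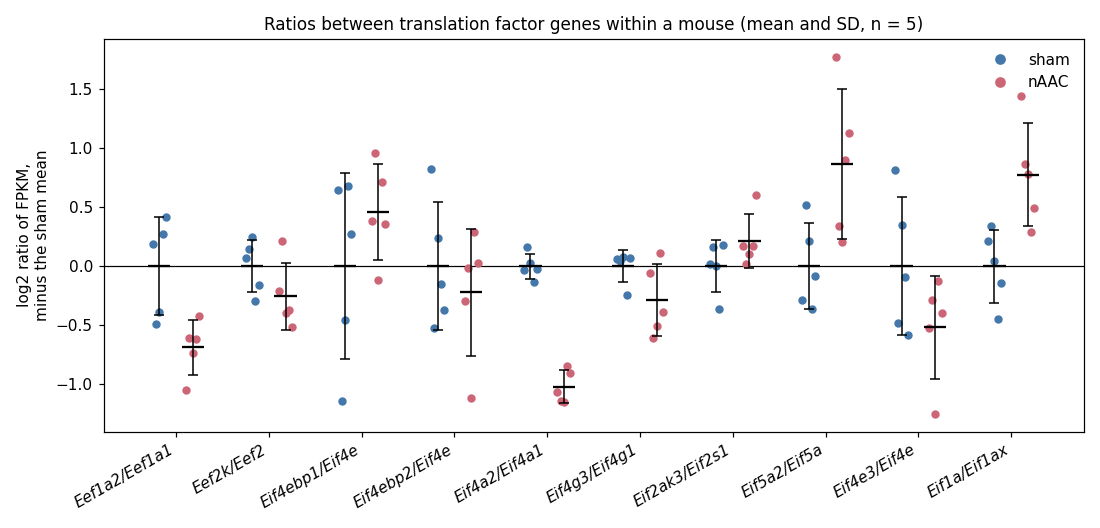
Log2 ratio of FPKM between pairs of factor genes in each mouse, minus the sham mean (vertical axis), with group mean and SD (n = 5 each). Eif4a2/Eif4a1 separates the groups without overlap, by -1.02, Eef1a2/Eef1a1 and Eif1a/Eif1ax lie apart with overlap at the edge, and the others overlap more.

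The exchange factor eEF1B, which renews GTP on eEF1A, is built of a scaffold, Eef1g, and the catalytic subunits Eef1b2 and Eef1d. Eef1g read 98.2, 123, 114, 130.1 and 108 in nAAC mice and 68.6, 72.0, 67.0, 119.5 and 88.8 in sham mice. Sham replicate 4 lay inside the nAAC range and the other sham mice below it (log2 FC 0.49, SE 0.17, adjusted p = 0.0424 from limma), and after median-ratio scaling 0.21 without a call (adjusted p = 0.313). Like that of Eif6, its call held in 3 of the 10 fits that left out a mouse, again without nAAC replicate 1, sham replicate 4 or sham replicate 5, with log2 FC from 0.42 to 0.62. Eef1b2 read 48.0, 60.7, 57.7, 64.4 and 55.1 against 39.4, 43.7, 44.7, 83.9 and 54.4, and sham replicate 4 was the highest of all mice (log2 FC 0.15, adjusted p = 0.561 from limma). Eef1b2 overlaps the more abundant Ndufs1 on the opposite strand, at 325% of its FPKM. Eef1d read 53.2, 50.9, 71.4, 62.6 and 58.9 against 59.1, 43.1, 39.6, 83.4 and 72.0, with equal group means of 59.4 ± 8.14 and 59.4 ± 18.6. Eef1e1, a member of the same fold family that serves as a scaffold of the aminoacyl-tRNA synthetase complex and was named after its values were seen, read 2.41, 2.93, 2.92, 3.21 and 3.01 against 1.28, 1.70, 1.99, 2.69 and 1.64. Sham replicate 4 alone reached the nAAC range (log2 FC 0.46, SE 0.13, adjusted p = 0.0164 from limma), and after median-ratio scaling 0.27 without a call (adjusted p = 0.139).

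Eef2, the translocase, and its kinase Eef2k showed no call. Eef2 read 408, 329, 393, 455 and 372 in nAAC mice and 312, 243, 241, 341 and 523 in sham mice. Sham replicate 5 stood above every nAAC mouse and sham mice 2 and 3 far below, so the spread within the sham group covered the difference (log2 FC 0.29, SE 0.20, adjusted p = 0.291 from limma). Without sham replicate 5 Eef2 was called higher. Eef2k, which slows elongation by phosphorylating eEF2, read 5.66, 6.10, 4.79, 5.62 and 4.16 against 5.23, 4.29, 4.58, 4.45 and 7.47. Here again sham replicate 5 was the highest of all mice (log2 FC 0.03, SE 0.15, adjusted p = 0.899 from limma). The log2 ratio of Eef2k to Eef2 differed by -0.26 (SE 0.16, exact permutation p = 0.14).

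Of the 5 tested genes for methyltransferases that modify eEF1A or eEF2, Eef1akmt4 was called higher, beside 27.1% of all genes. It read 2.49, 3.94, 2.59, 3.52 and 3.22 in nAAC mice and 1.09, 1.40, 1.10, 2.40 and 2.17 in sham mice, with no overlap (log2 FC 0.67, SE 0.16, adjusted p = 0.00704 from limma, 0.0218 after median-ratio scaling). It overlaps Alg3 on the opposite strand, whose mean FPKM was 162% of its own, and without known strand use the reads of both cannot be told apart. Eef2kmt, for the eEF2 enzyme, lay higher in every nAAC mouse at 5.38 ± 0.391 against 3.85 ± 1.07, but came out just past the limit (adjusted p = 0.0502 from limma), and it overlaps Alg1, at 144% of its FPKM, in the same way. Eef1akmt1, Eef1akmt2 and Eef1aknmt were not called, at -0.02, 0.19 and 0.14. Eif1ad, Eif2b4, Eif2ak1, Eif5b, Eif3j1 and Eif2d also overlap an opposite-strand gene with a mean FPKM of 7.15% to 359% of their own. The pseudogene Eef2-ps2, identical to Eef2 at 97.0% of 1345 aligned bases, stood at -0.05.

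Across the family, 12 members lay higher in every nAAC mouse than in any sham mouse, beside 18.9% of all genes, and 2, Eif3m and Eif4a2, lay lower, beside 3.46%. After median-ratio scaling 4 lay above without overlap, beside 10.7% of all genes, and 7 below, beside 9.56%. The 4 were Eef1a1, Eif4a1, Eif4g1 and Eif4a-ps4. The members together took 0.842% to 0.985% of the FPKM of nuclear genes in nAAC mice and 0.712% to 0.917% in sham mice. Only sham replicate 5 reached the nAAC range. Just 4 of the genes, Eef1a1, Eef1a2, Eef2 and Eif1, held 45.4% to 50.3% of the members' summed FPKM in nAAC mice and 44.6% to 49.3% in sham mice.

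Sham replicate 4 differed from the other sham mice in a way that followed transcript length. It was the highest of the sham mice for 26 members, whose longest transcripts had a median of 1951 bases, and the lowest for 13, with a median of 4513 bases. Across the 67 members, Spearman's rho between a gene's deviation from the sham mean and its transcript length was -0.70 in sham replicate 4, against 0.23, 0.51, 0.53 and -0.09 in sham mice 1, 2, 3 and 5, a description over genes that share 1 library. The deviations were taken from the mean of these same sham mice, so the rho values are not independent of one another. Sham replicate 5 was the highest for 28 members without such a trend on length. With sham replicate 4 left out and median-ratio scaling used together, a setting added after seeing the data, 9 members were called higher, beside 16.2% of all genes, and 10 lower, beside 15.7%.

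**Figure D5:**
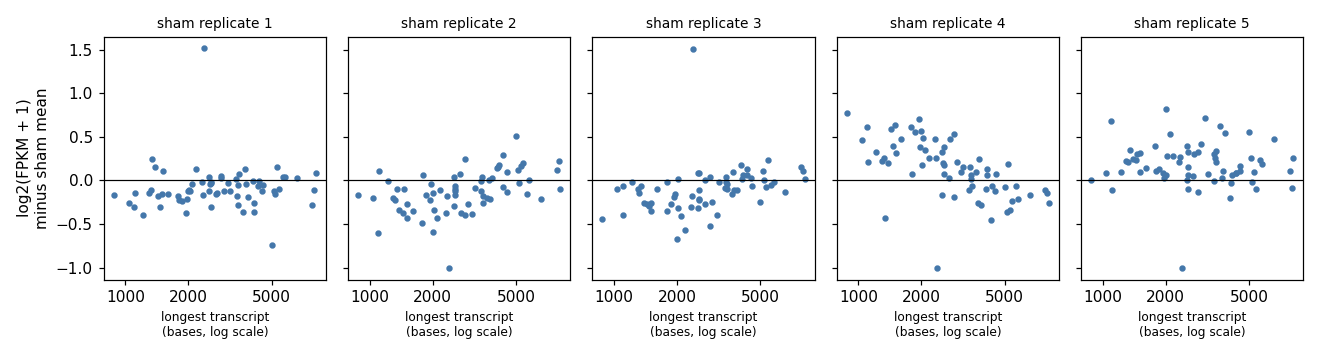
Deviation of each of the 67 members from the sham mean (log2(FPKM + 1), vertical axis) against the length of its longest transcript (bases, log axis) in the 5 sham libraries. The points fall with length in sham replicate 4 (rho -0.70) and not in sham replicate 5 (rho -0.09).

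Markers of the cell types of the LV moved with the same comparison, in which 27.1% of all genes were called higher and 4.6% lower, or 13.2% and 12.1% after median-ratio scaling. Fibroblast markers were called higher for 7 of 10 tested genes, with a summed FPKM of 1110 to 1690 in nAAC mice and 688 to 935 in sham mice, and mural cell markers for 6 of 9, at 302 to 436 against 203 to 337. Endothelial markers were higher for 2 of 10, at 268 to 422 against 231 to 341, and macrophage and leukocyte markers for 2 of 8, at 141 to 283 against 93.3 to 202. Of 12 cardiomyocyte markers 3 were higher and 2 lower. Atrial markers summed to 6330 to 11700 in nAAC mice and 103 to 211 in sham mice, with 1 of 6 higher and 1 lower. Nearly all of that sum was Nppa, the natriuretic peptide gene that loaded ventricles also express, at a mean of 8220 against 121, while Stard10 was the lower gene and the atrial genes Myl7, Myl4 and Sln were not called (adjusted p = 0.528, 0.334 and 0.39 from limma). Of 5 erythroid markers and the 1 tested skeletal muscle marker none was called, and the skeletal muscle gene Myh4 was at 0 in every library. No defining marker of the other types was at 0 throughout. After median-ratio scaling the counts higher and lower were 5 and 0 for fibroblast, 4 and 1 for mural, 1 and 0 for endothelial, 1 and 0 for macrophage and leukocyte, 2 and 4 for cardiomyocyte and 1 and 1 for atrial markers, with Ckm, listed for both cardiomyocyte and skeletal muscle, lower and no erythroid gene called. The part of these cell types in the levels of the factor genes was not tested.

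Genes around the factors were read from lists by pathway. Of all genes tested, 27.1% were called higher and 4.6% lower, or 13.2% and 12.1% after median-ratio scaling. Of 14 genes of eIF2 signalling and the integrated stress response, 7 were called higher and none lower, with 6 higher after median-ratio scaling, and their median log2 FC was 0.39 beside 0.22 for all genes. The largest were Nupr1, a stress-induced chromatin protein, at 2.32 (SE 0.23, adjusted p = 1.06e-05 from limma), and Atf5, a transcription factor of the pathway, at 1.29 (SE 0.23, adjusted p = 0.00106). Atf4, its central transcription factor, named after its values were seen, rose from 22.8 ± 3.08 to 39.9 ± 6.40 FPKM (SD, n = 5 each). The genes of the list that were not called included Trib3 at 0.21 and Chac1 at -0.17 (adjusted p = 0.252 and 0.466 from limma). The eIF2 and eIF2B genes themselves, as given above, were not called. Of 22 genes for cytosolic aminoacyl-tRNA synthetases and their scaffolds, 14 were called higher and none lower, with 4 higher and 2 lower after scaling. Aars (alanyl) and Rars (arginyl) led them, at 0.71 and 0.69 (adjusted p = 0.001 and 0.000815 from limma).

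Of 20 tested genes of mTORC1 and eIF4 signalling, 5 were higher and 1 lower, and 2 and 2 after scaling. Mknk2, a kinase that phosphorylates eIF4E, stood at 42.8 ± 13.8 FPKM in sham mice and 86.1 ± 11.2 in nAAC mice (SD, n = 5 each), or 1.03 on the log2 scale (adjusted p = 0.00109 from limma). Rptor, the mTORC1 scaffold, was higher by 0.55 (adjusted p = 0.00334), and Sesn1, an inhibitor of mTORC1, had a log2 FC of -0.51 (adjusted p = 0.0133 from limma). Termination and recycling had 3 of 7 genes higher and none lower, among them Pelo, which rescues stalled ribosomes, at 0.97 and Abce1, which splits ribosomes, at 0.43. After scaling the count was 1 and 1, with Abce1 not called (adjusted p = 0.403) and Hbs1l, the partner of Pelo, lower at -0.42 (adjusted p = 0.00436 from limma). Of 9 genes for hypusine and diphthamide, the modifications of eIF5A and eEF2, 2 were higher, Dph5 at 0.57 and Dnajc24 at 0.47, and after scaling Dph5 alone (adjusted p = 0.0497 from limma). These counts stand beside the 27.1% of all genes called higher, or 13.2% after scaling. Poly(A)-binding proteins and their partners had 1 of 12 higher, Pabpc1 at 0.42, selenocysteine and specialised elongation had 1 of 8, Gtpbp2 at 0.48, and mitochondrial translation factors had 1 of 11, Gfm2 at 0.28, with none lower in any of these lists. After median-ratio scaling none of these last 3 genes was called, and 2, 1 and 2 genes of their lists were called lower.

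Promoters are shown for the eEF1A and eIF4A pairs, since in each pair the general form was called higher and the other form was not. RefSeq sequence (GRCm38.p6) from 250 bases before to 50 after the start was at hand for 51 of the 67 members. The windows printed run from 100 bases before the start to 20 after it, 5′ to 3′ on the gene's strand, with capitals at matches on either strand to the GC box GGGCGG or to the letters CCAAT. Matches to the E-box CACGTG and to the TATA box letters TATAAA would be shown likewise, and all of these motifs were chosen after the values were seen.
Eef1a1, chr9:78481705-78481824, minus strand: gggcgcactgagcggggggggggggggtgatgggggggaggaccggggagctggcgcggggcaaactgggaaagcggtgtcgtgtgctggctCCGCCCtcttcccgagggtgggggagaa
Eef1a2, chr2:181156996-181157115, minus strand: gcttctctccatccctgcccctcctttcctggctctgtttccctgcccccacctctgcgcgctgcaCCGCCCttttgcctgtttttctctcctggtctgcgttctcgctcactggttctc
Eif4a1, chr11:69672404-69672523, minus strand: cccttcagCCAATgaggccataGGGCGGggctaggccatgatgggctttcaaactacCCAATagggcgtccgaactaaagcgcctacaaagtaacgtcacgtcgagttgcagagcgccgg
Eif4a2, chr16:23107368-23107487, plus strand: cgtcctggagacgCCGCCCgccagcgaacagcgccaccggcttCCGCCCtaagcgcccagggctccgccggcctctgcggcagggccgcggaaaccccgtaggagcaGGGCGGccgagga
Each of the 4 windows held a GC box, and the CCAAT letters occurred only in that of Eif4a1, where they stood at 2 places. Over the whole promoters the E-box letters occurred in 13 of the 51 members, or 25.5%. This stood against 12.1% of the 8763 tested genes, and 8.1% of all 27025 genes, that had a promoter sequence. Eif4a1, Eif4g1, Eif4e, Eef2 and Eif5a were among these 13. The GC box occurred in 74.5% of members against 70.1% of tested genes, CCAAT in 33.3% against 42.7% and the TATA letters in 7.8% against 9.0%. A C followed by 4 or more pyrimidines exactly at the start, as in mRNAs whose translation follows mTORC1, was found in 2 members, or 3.9%, against 3.1%, and within 5 bases of the start in 25.5% against 24.3%. Both shares rest on the RefSeq start of each gene, which was not checked against these data. They therefore do not decide how many members carry such a tract in their mRNA. The letters TGATGNAA, to which ATF4 and C/EBP proteins bind, occurred in 2 members, Eef2k and Eif2s3x, or 3.9%, against 2.7%. These shares are descriptions of sequence and not of binding.

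The 17 members below the tested level were mostly pseudogenes and tissue-restricted copies. Among them, 4 were listed at 0 in every library, including the germline cap-binding gene Eif4e1b. Eif5a2, the rarer form of eIF5A, came nearest to the limit, and its values by mouse were picked out after they were seen. It read 1.86, 1.003, 0.771, 1.35 and 1.34 in nAAC mice and 0.387, 0.587, 0.511, 0.626 and 0.592 in sham mice. All nAAC mice lay above all sham mice. Its log2 ratio to Eif5a differed by 0.87 (SE 0.33, exact permutation p = 0.040, 0.099 adjusted over the 10 ratios). The remaining ratios, Eif4g3 to Eif4g1, Eif2ak3 to Eif2s1 and Eif4e3 to Eif4e, differed by -0.29, 0.21 and -0.52, with exact permutation p of 0.087, 0.19 and 0.17. The other untested members, Eef1akmt3, Eif4ebp3, Eif4a3l1, Eif4a3l2 and the pseudogene copies among them, stayed below an FPKM of 1 in every mouse.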

How the data were processed

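The authors deposited 1 table per mouse with, for each gene, a coverage (mean reads per base), an FPKM and a TPM. Per the labels, RNA was extracted with Trizol, libraries were made with a NEBNext Ultra kit and the build was mm10. The aligner, the quantifier and strand use are not given in the sources used here. Rows sharing a gene ID (7 to 12 per table) were summed. Coordinates matched GENCODE M21 for 99.4% of 55141 genes.

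Genes that averaged an FPKM of 1 or more were tested on log2(FPKM + 1) with limma 3.58.1 (trend, R 4.3.3) and Benjamini-Hochberg adjustment over all of them. Single genes and ratios were compared by two-sided exact permutation tests, whose smallest p is 0.0079. Read counts cannot be recovered, so no count model was used. Alternatives covered scaling, filter, pseudocount, unit, Xist, threshold, a replicate block and leaving out each mouse.

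Members, roles and gene lists were chosen with earlier results of these data known. Per-mouse values were given for the 6 largest called changes in each direction and for a fixed set of core factors. Other members given by mouse or by mean, Eif3h and Eif5a2 among them, lay outside this plan. They count as chosen after their values were seen, also where no mark stands beside them. The pathway lists cover eIF2 signalling and the integrated stress response, mTORC1 and eIF4 signalling, poly(A)-binding, termination, hypusine and diphthamide, aminoacyl-tRNA synthetases, selenocysteine and specialised elongation, and mitochondrial translation. Promoters were RefSeq sequences.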

Additional observations from a re-analysis of the deposited data

Results flagged for a closer look

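Among 154 groups of 5 values of members or their ratios, 10 held a mouse whose gap to its nearest neighbour, divided by the range of the group, exceeded 0.71, where chance gives about 7.7. In nAAC mice these were Eif4a1 (highest in replicate 2, 0.823), Eif3j1 (highest in replicate 2, 0.757), Eif4e (highest in replicate 3, 0.803), Eif2ak2 (lowest in replicate 3, 0.72), Eif3i (highest in replicate 1, 0.726), Eif4g1 (lowest in replicate 1, 0.751) and the ratio of Eif2ak3 to Eif2s1 (highest in replicate 5, 0.736). In sham mice they were Eif3e and Eif4a2 (both lowest in replicate 1, 0.775 and 0.739) and the ratio of Eif4g3 to Eif4g1 (lowest in replicate 4, 0.894). The number lay near that of chance. Without nAAC replicate 2 Eif4a1 was still called higher, and without nAAC replicate 1 so was Eif4g1.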

How the results depend on the processing

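The 12 higher and 0 lower calls became 5 and 8 after median-ratio scaling, 6 and 8 after upper-quartile scaling, 12 and 1 without the filter, 7 and 0 with Xist as a covariate, 26 and 0 on TPM, and 17 and 2 rescaled without mitochondrial genes. Of the alternatives chosen after seeing the data, removal of GC content and transcript length trends gave 9 and 9, median-ratio scaling without sham replicate 4 gave 9 and 10, and median-ratio scaling with a replicate block gave 3 and 7. Leaving out a mouse gave 10 to 20 higher and 0 to 2 lower calls. The share of all genes called higher and lower moved too, from 27.1% and 4.6% to 13.2% and 12.1% after median-ratio scaling, 13.7% and 11.5% after upper-quartile scaling, 11.6% and 2.13% without the filter, 13.4% and 3.29% with Xist, 41.9% and 2.9% on TPM, 26.5% and 5.07% without mitochondrial genes, 15.3% and 14.6% with trends removed, 16.2% and 15.7% with median-ratio scaling without sham replicate 4, 11.1% and 9.61% with median-ratio scaling and a block, and 20.2% to 33.1% and 3.59% to 5.23% with a mouse left out. The labels do not say whether same-numbered mice were paired. Their values showed no sign of it (correlations of their deviations from -0.316 to 0.192, and 0 of 5 nAAC libraries closest to their own number). The replicate block gave 13 and 0, beside 24.7% and 4.19% of all genes. Eif4a-ps4 alone was called higher in all 23 settings, and Eef1a1 and Eif4a1 in all but median-ratio scaling with a replicate block. Eef1a2 turned to -0.36 with trends removed, and Eif4ebp2 to -0.26 there and to -0.27 with median-ratio scaling without sham replicate 4. The ratios kept their direction, which TPM, as a rescaling of a whole library, could not have changed. Their adjusted p over these alternatives was never below 0.053, and with a mouse left out no exact p can be below 0.016, so it says nothing of their stability. Over the log2 FC of all members and alternatives, 1313 of 1474 values kept their sign and 161 changed it, in 39 members, and 25 of these changes came with median-ratio scaling. Of the 161 changes, the 3 named above alone ended in a call, and none started from one. The threshold was newly passed by 84 values and lost by 52. Causes were not tested. Precision rests on 5 mice per group.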
